A study of Mus musculus with 10 samples.

Results

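The 10 genes described here belong to the Nrf2 pathway, one of the main routes by which cells answer oxidants and reactive chemicals. They are the regulators Nfe2l2, Keap1, Maff and Mafg, the redox enzymes Nqo1, Txnrd1, Srxn1 and Hmox1, and the pentose phosphate enzymes G6pdx and Taldo1. They were chosen by name: every probe was taken whose gene name on the array, or whose current symbol through its accession, is one of the 10. These were 16 of the 41174 probes and 10 of the 27670 genes on the array. The lungs came from female BALB/c mice that were 6 to 8 weeks old before the 8 weeks of exposure, 5 of them kept in room air and 5 given cigarette smoke, with 1 lung per array and no pooling. A smoke exposure used 12 cigarettes over 50 minutes and was given 2 times a day on 5 days of each week for 8 weeks. The labels name no genetic change and no agent other than the smoke.

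Nfe2l2 encodes the transcription factor Nrf2. In unstressed cells Keap1 holds Nrf2 and hands it to a ubiquitin ligase for destruction, and when oxidants or electrophiles modify Keap1, Nrf2 escapes and enters the nucleus. There it pairs with a small Maf protein, such as MafF or MafG, and binds antioxidant response elements near genes for detoxification, glutathione and thioredoxin metabolism and NADPH supply. In lung this pathway is known for its part in the defence against inhaled oxidants. Much of this control acts on the Nrf2 protein, which the arrays do not measure.

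Each value is a log2 ratio of the red over the green signal of a probe, where red is lung RNA and green a common reference, so a value of 0 means equal signal and a fold change is 2 raised to the difference between group means. What each channel holds can be seen in the data. The Y-linked Ddx3y reached 9.92 on the log2 scale in green and 2.97 in red. The red value is approximate, as it was well above background on only 2 of 10 arrays. The lung genes Sftpc and Scgb1a1 were brighter in red by 6.39 and 6.72, the first of these an approximate value, as the Sftpc probe was saturated on 1 array. Sftpc marks alveolar type 2 cells and Scgb1a1 airway secretory cells, and both were well above background in red on all 10 arrays. Each ratio compares a gene with its own reference level, so the values do not rank the genes by abundance. In red, 67.8 to 76.7% of spots were well above background on the room air arrays (median 71.7%) and 64.9 to 77.5% on the smoke arrays (median 69.5%). Every probe of the 10 genes was well above background in both channels on all 10 arrays, and 0 were saturated. The number of arrays limits the precision.

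Every direction given here rests on the assignment of the scanner files to the samples, since a deposited table of log2 values, the mean of both channels, holds the groups the other way round. In it, the array labelled as smoke carries the values of the room air scanner file of the same number. Taken as labelled, that table would give Nqo1 a level of 9.09 with smoke and 10.20 with room air, a difference of -1.11, and Txnrd1 a difference of -0.48. Which assignment is right was not tested by any sample outside these 10 arrays.

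Smoke and room air were compared with limma, with p-values adjusted over all 41173 probes that could be tested and a threshold of 0.05 for the adjusted p. A gene with several probes is represented by the one with the brightest mean red signal. With smoke, 7 of the 10 genes were higher and past the threshold: Nqo1, Txnrd1, Srxn1, Maff, G6pdx, Nfe2l2 and Taldo1. The other 3, Hmox1, Mafg and Keap1, were not past it. Lower and past the threshold were 0 of the 10, and 8 of the 10 had an unadjusted p under 0.05, as did 5513 (19.9%) of all genes. Across the 27669 genes tested, 1366 (4.94%) were past the threshold and higher with smoke and 905 (3.27%) were past it and lower, and of the probes 2906 (7.06%) passed in either direction. The median log2 difference was 0.60 over the 10 genes and -0.0042 over all genes. In 5 of the 10, Nqo1, Txnrd1, Srxn1, G6pdx and Nfe2l2, the lowest smoke array exceeded the highest room air array, as it did in 1271 (4.59%) of all genes. With the slide as a block, 8 of the 10 passed, with Hmox1 added, against 2070 genes (7.48%) higher with smoke in that fit. Nqo1, Txnrd1 and Srxn1 passed in 22 of 23 alternative settings, all but the adjusted Wilcoxon test, under which 0 of the 10 passed (6 had an unadjusted Wilcoxon p under 0.05), and with median centring of the ratios 3 of the 10 passed.

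**Figure D1:**
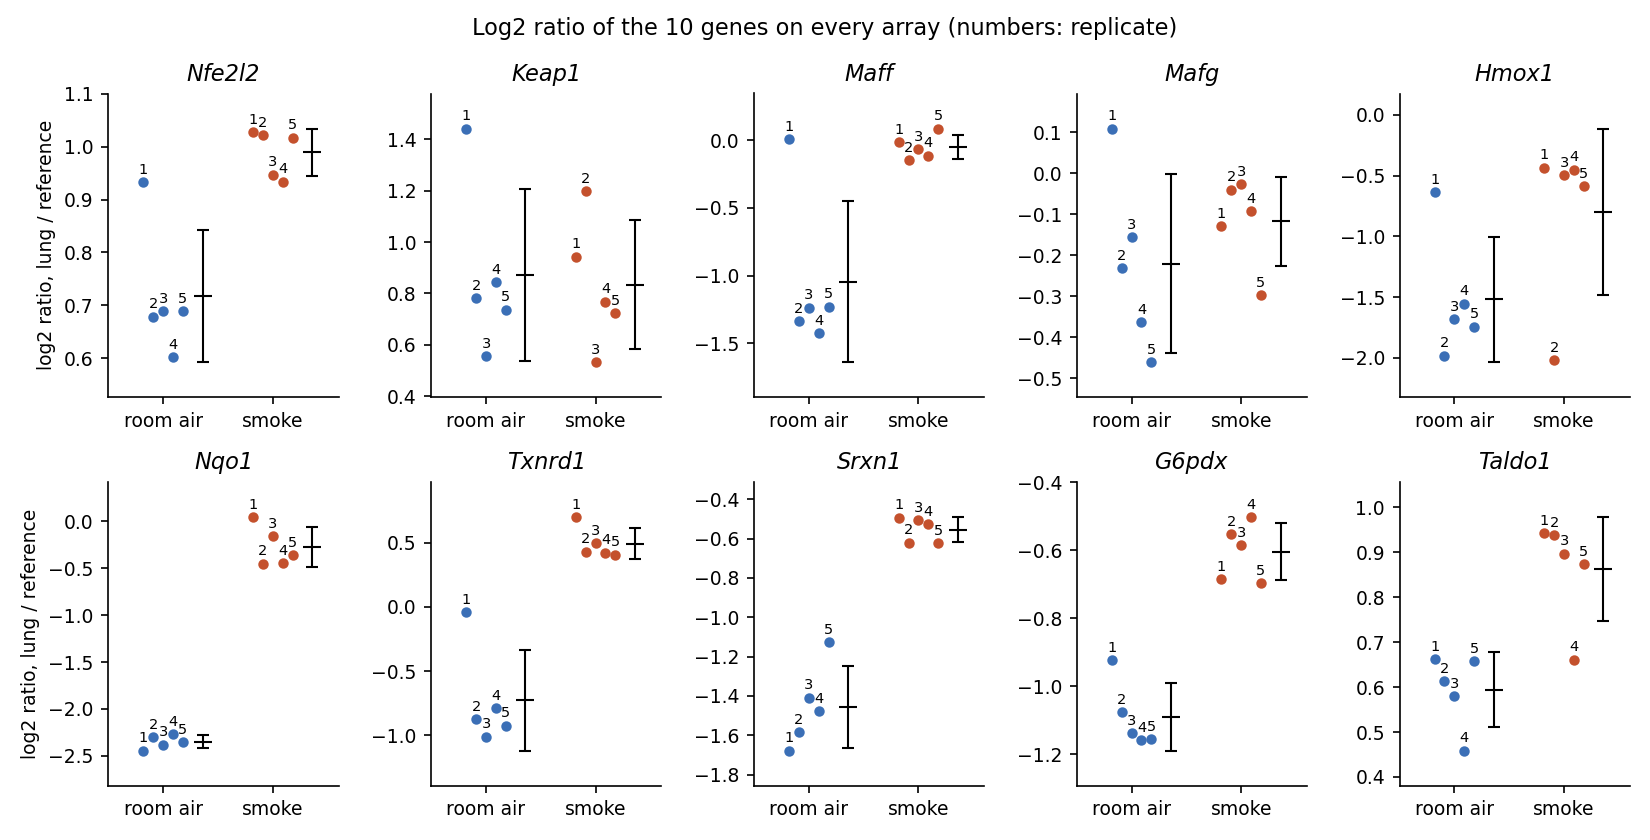
The log2 ratio of lung over reference signal (vertical axis, a separate scale in each panel) is shown for each of the 10 genes on each array, room air in blue and smoke in orange, with the replicate number at each point and bars for the mean and SD of 5 arrays. Nqo1, Txnrd1, Srxn1 and G6pdx show a clear gap between the colors, the lowest smoke array of Nfe2l2 is all but level with room air replicate 1, and in Maff room air replicate 1 (0.01) lies with the smoke arrays.

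Nqo1 encodes a quinone reductase that passes electrons in pairs to quinones and so avoids their radical forms. Its log2 ratio was -2.45, -2.31, -2.38, -2.27 and -2.35 in room air replicates 1 to 5 and 0.05, -0.45, -0.16, -0.44 and -0.36 in smoke replicates 1 to 5. The room air lungs lay within a narrow band and every smoke-exposed lung was far above it. The means were -2.35 ± 0.07 and -0.27 ± 0.21 (SD, n = 5), a difference of 2.08 (SE 0.09) or 4.22-fold (adjusted p = 2.49e-07, limma). This was the largest difference among the 10 genes, and the smoke array was higher on 5 of 5 slides, by 1.83 to 2.49.

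Txnrd1 encodes the cytosolic thioredoxin reductase, a selenoprotein that uses NADPH to keep thioredoxin reduced. Its log2 ratio was -0.04, -0.87, -1.01, -0.79 and -0.92 with room air and 0.70, 0.43, 0.49, 0.42 and 0.41 with smoke. Room air replicate 1 stood well above the other room air lungs, and still below all smoke-exposed lungs. Txnrd1 rose by 1.22 (SE 0.16), or 2.33-fold (adjusted p = 0.000802), with the smoke array higher on 5 of 5 slides. Without room air replicate 1 it was 2.62-fold (adjusted p = 6.81e-07).

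Srxn1 encodes sulfiredoxin, which restores peroxiredoxins whose active cysteine has been overoxidized. It was measured by 3 probes on chromosome 2, and the brightest gave -1.68, -1.58, -1.41, -1.48 and -1.13 with room air and -0.49, -0.62, -0.51, -0.53 and -0.62 with smoke. The groups did not overlap in any of the 3 probes. Srxn1 rose by 0.90 (SE 0.09), or 1.87-fold (adjusted p = 0.000136), with the smoke array higher on 5 of 5 slides. The other probes gave 1.89-fold and 1.82-fold (adjusted p = 0.000263 for each), but they are not separate measurements of the transcript, since they lie at chr2:151850353-151850412 and chr2:151850306-151850365 of build mm7, plus strand, and share 13 bases. The last 30 bases of A_52_P593200, the 1.82-fold probe, and the first 30 of A_51_P330125, the 1.89-fold probe, have the shared bases in capitals.
A_52_P593200, last bases: ctttatgatagcactatATGAACTATGTAC
A_51_P330125, first bases: ATGAACTATGTACtaggaagtaaaggaaaa

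Hmox1 encodes the inducible heme oxygenase, which opens heme to biliverdin, iron and carbon monoxide. Its log2 ratio was -0.64, -1.98, -1.68, -1.55 and -1.74 with room air and -0.43, -2.02, -0.49, -0.45 and -0.59 with smoke. In each group 1 lung was placed with the other group: room air replicate 1 was as high as the smoke-exposed lungs, and smoke replicate 2 was as low as the room air lungs. The group means were -1.52 ± 0.52 and -0.80 ± 0.68 (SD, n = 5), and the difference of 0.72 had a 95% interval of 0.0065 to 1.44 and was not past the threshold (adjusted p = 0.270). Within slides 3, 4 and 5 the smoke array was higher by 1.18, 1.10 and 1.15, against 0.20 on slide 1 and -0.04 on slide 2. With the slide as a block the adjusted p was 0.0462, without smoke replicate 2 it was 0.0226 at 2.04-fold, and without room air replicate 1 it was 0.0768 at 1.92-fold. Without both arrays, an alternative chosen after seeing the data, Hmox1 was 2.37-fold higher (adjusted p = 1.84e-05).

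The position of both arrays in Hmox1 was in the lung channel. On the log2 scale above the 75th percentile of its array, the red signal of Hmox1 was 1.88 in smoke replicate 2 and 2.93 to 3.50 in the other smoke arrays, while the green signal was 4.24, within the 3.73 to 4.32 of the others. For room air replicate 1 the red signal was 3.18, against 1.80 to 2.27 in the other room air arrays. In Maff, on the same scale, the red signal of room air replicate 1 was 2.72, against 1.31 to 1.68, and its green signal was 2.78, against 2.72 to 3.15. Why these lungs differ from the others of their groups was not tested.

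G6pdx encodes glucose-6-phosphate dehydrogenase, the entry step of the pentose phosphate pathway and a main source of NADPH. Its log2 ratio was -0.92, -1.08, -1.14, -1.16 and -1.16 with room air and -0.69, -0.55, -0.59, -0.50 and -0.70 with smoke, so the groups did not overlap. G6pdx rose by 0.49 (SE 0.06), or 1.40-fold (adjusted p = 0.000583), and the smoke array was higher on 5 of 5 slides, by 0.24 to 0.66. With median centring its adjusted p was 0.0798. Binding of the probe to transcripts of the closely related G6pd2 was not tested.

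Taldo1 encodes transaldolase, which works in the later, reversible steps of the same pathway. Its log2 ratio was 0.66, 0.61, 0.58, 0.46 and 0.66 with room air and 0.94, 0.94, 0.90, 0.66 and 0.87 with smoke. Both groups were lower on slide 4. Smoke replicate 4 reached only the level of the highest room air lungs, and the groups overlapped through this array alone. Taldo1 rose by 0.27 (SE 0.06), or 1.20-fold (adjusted p = 0.0280), with the smoke array higher on 5 of 5 slides, by 0.20 to 0.33. Its call was lost without room air replicate 2, 3 or 4 or without smoke replicate 1, 2, 3 or 5, with adjusted p up to 0.0765.

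Nfe2l2 was measured by 4 probes. The brightest gave a log2 ratio of 0.93, 0.68, 0.69, 0.60 and 0.69 with room air and 1.03, 1.02, 0.95, 0.93 and 1.02 with smoke. Room air replicate 1 stood above the other room air lungs and was all but level with the lowest smoke-exposed lung. The means were 0.72 ± 0.13 and 0.99 ± 0.05 (SD, n = 5), a rise of 0.27 (SE 0.06) or 1.21-fold (adjusted p = 0.0211), with the smoke array higher on 5 of 5 slides. The call was lost without room air replicate 2 or 3 or smoke replicate 1, 2 or 5, with adjusted p up to 0.0576, and without room air replicate 1 the adjusted p was 0.00115.

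The other Nfe2l2 probes did not all give this value. A second probe of the same reference transcript gave 1.05, 0.69, 0.79, 0.65 and 0.79 with room air and 1.11, 1.02, 1.03, 0.92 and 1.03 with smoke, a difference of 0.23 (adjusted p = 0.0947, or 0.0231 with the slide as a block). The remaining 2 probes were made to RIKEN clones, lie at chr2:75544410-75544469 and chr2:75535606-75535665 (mm7, minus strand), against chr2:75519430-75519489 and chr2:75519576-75519635 for the first pair, and gave -0.12 and -0.01 (adjusted p = 0.859 and 0.972). Averaged over all 4 probes, the difference was 0.09 (adjusted p = 0.642). The first 30 bases of each probe are given so that the transcripts behind these unlike values can be looked up, first the pair on the reference transcript and then the pair on the clones.
A_51_P411271: ctcaagttaatttcttaggcaccatttggg
A_52_P396436: gtactgctaaaacttcctactgtgatgtga
A_52_P1107697: ggtagagtttggtaatgattaccctgtatt
A_52_P523835: tagtaatcctttttataggcccaaattgca

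Keap1, the sensor that holds Nrf2, was measured by 1 probe. Its log2 ratio was 1.44, 0.78, 0.56, 0.85 and 0.74 with room air and 0.94, 1.20, 0.53, 0.77 and 0.72 with smoke, and the groups overlapped fully. The difference was -0.04, with a 95% interval of -0.39 to 0.32 (adjusted p = 0.953), and its sign changed with the scaling of the arrays (0.01 with ratios scaled between arrays) and without room air replicate 1 (0.10). The smoke array was higher on 1 of 5 slides. Slide 1 differed by -0.50 and slide 2 by 0.42, and the other slides by -0.08 to -0.01. The slide 1 difference was in the reference channel. On the scale used for the channels of Hmox1, red was 3.60 in room air replicate 1 and 3.61 in smoke replicate 1. Green was 2.32 in room air replicate 1, below the 2.81 to 2.93 of the other room air arrays, and 2.82 in smoke replicate 1. On slide 2 red was 3.55 with room air and 3.96 with smoke, and green was 2.93 and 2.90.

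The small Maf genes gave unlike pictures. Maff had a log2 ratio of 0.01, -1.34, -1.24, -1.43 and -1.23 with room air and -0.01, -0.15, -0.06, -0.11 and 0.09 with smoke. Room air replicate 1 lay among the smoke-exposed lungs, and the other room air lungs lay far below. Maff rose by 1.00 (SE 0.23), or 1.99-fold (adjusted p = 0.0231), with the smoke array higher by 1.17 to 1.32 on slides 2 to 5 and a difference of -0.02 on slide 1. Without room air replicate 1 the change was 2.39-fold (adjusted p = 6.13e-07), while without any other room air array, or without smoke replicate 1, 3 or 5, the adjusted p rose to between 0.0509 and 0.0628.

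Mafg encodes another small Maf partner of Nrf2. Its brightest probe gave 0.11, -0.23, -0.16, -0.36 and -0.46 with room air and -0.13, -0.04, -0.03, -0.09 and -0.30 with smoke, overlapping groups that differed by 0.10 (95% interval -0.11 to 0.32, adjusted p = 0.706), from 0.04 without room air replicate 5 to 0.19 without room air replicate 1. A dimmer probe, made to a RIKEN clone, gave -0.32, -0.44, -0.48, -0.60 and -0.51 with room air and -0.29, -0.20, -0.25, -0.27 and -0.23 with smoke. In that probe every smoke-exposed lung was above every room air lung, the difference was 0.22 or 1.17-fold (adjusted p = 0.0284), and the smoke array was higher on 5 of 5 slides. Without room air replicate 1 its adjusted p was 0.00560, and without any other single array it was 0.0520 to 0.0692. Its call was also lost with the scanner's ratio (adjusted p = 0.0530), offset 0 (0.126), median centring (0.662) and ratios scaled between arrays (0.0586). In the red channel alone it was lost too, at the 75th percentile (0.297) and with quantile normalization (0.190). So the choice of probe and the processing both decided whether Mafg was called. The first 30 bases of the brighter and then the dimmer probe are as follows.
A_52_P240754: acgttgggatcagccagttcaacagtgatg
A_52_P596112: aggagtagtaggtctttgcttctgaacagg

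**Figure D2:**
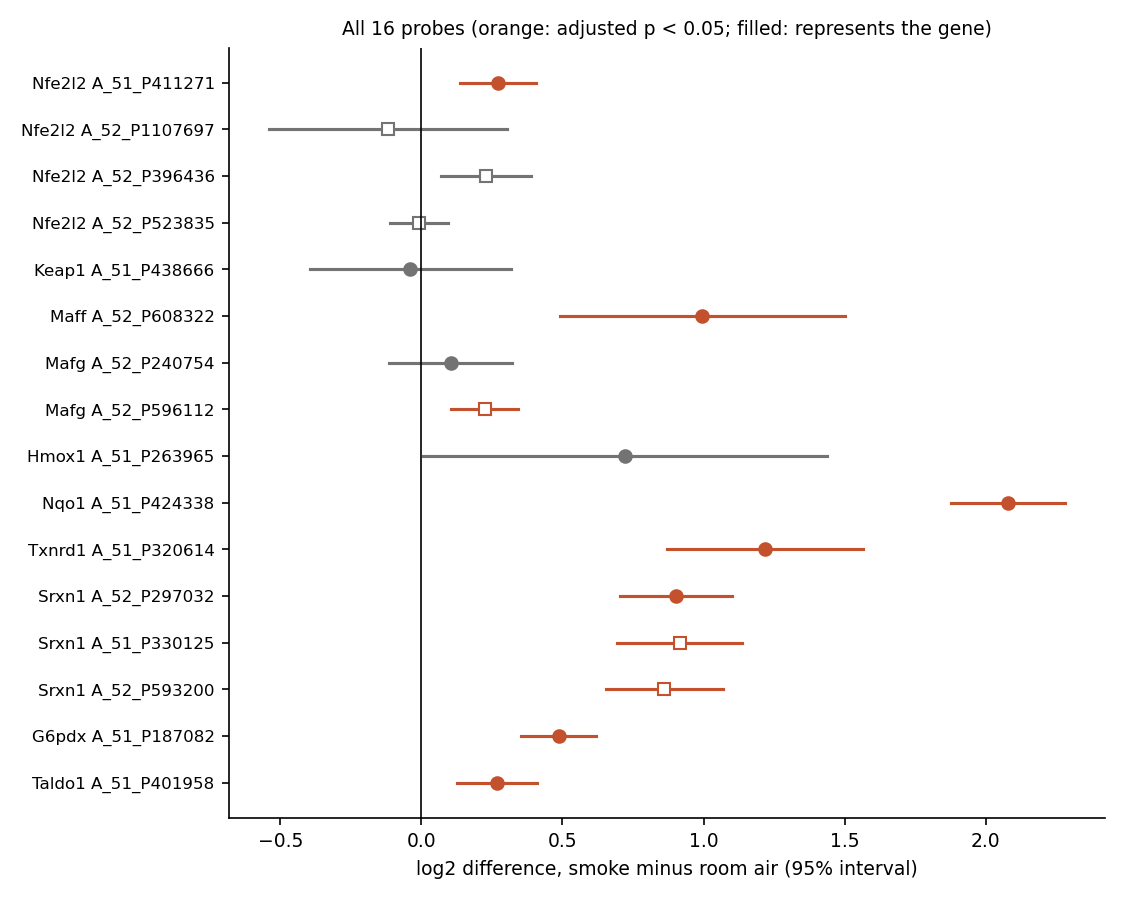
Log2 difference between smoke and room air (horizontal axis) for all 16 probes, with lines for the 95% interval, circles for the probe that represents a gene, squares for other probes and orange for an adjusted p under 0.05. The 3 Srxn1 probes lie close together at 0.86 to 0.92, while the 4 Nfe2l2 probes run from -0.12 to 0.27.

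The green reference was also compared between the groups. Between smoke and room air arrays, the green signal of the 16 probes, on the scale of its array's 75th percentile, differed by -0.16 to 0.07 on the log2 scale, and exact two-sided permutation tests gave p of 0.206 to 0.984. Within slides, the green signal was lower with smoke on 5 of 5 for Txnrd1, by small amounts (-0.09 to -0.03), and for the Srxn1 probe A_51_P330125 (-0.52 to -0.0081), each with the smallest p that an exact test over 5 slides can give, 0.0625. For Nqo1 the green difference was -0.0088 and the red difference 2.36. For Txnrd1 these were -0.06 and 1.24, and for Maff -0.02 and 1.02. The green signal of Keap1 was higher with smoke by 0.50 on slide 1, and differed by -0.14 to 0.11 on the other slides.

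Both arrays of a replicate number share a slide, smoke in place 1 and room air in place 2, and the 5 slides were scanned over 4 days. Place on the slide and exposure can therefore not be told apart. Within slides, Nqo1, Txnrd1, Srxn1, G6pdx, Taldo1 and Nfe2l2 were higher with smoke on 5 of 5, Maff, Hmox1 and Mafg on 4 of 5, and Keap1 on 1 of 5. Slide 1, which holds room air replicate 1, had the smallest within-slide difference of Txnrd1 (0.74), G6pdx (0.24) and Nfe2l2 (0.09), and yet the largest of Nqo1 (2.49) and Srxn1 (1.19).

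**Figure D3:**
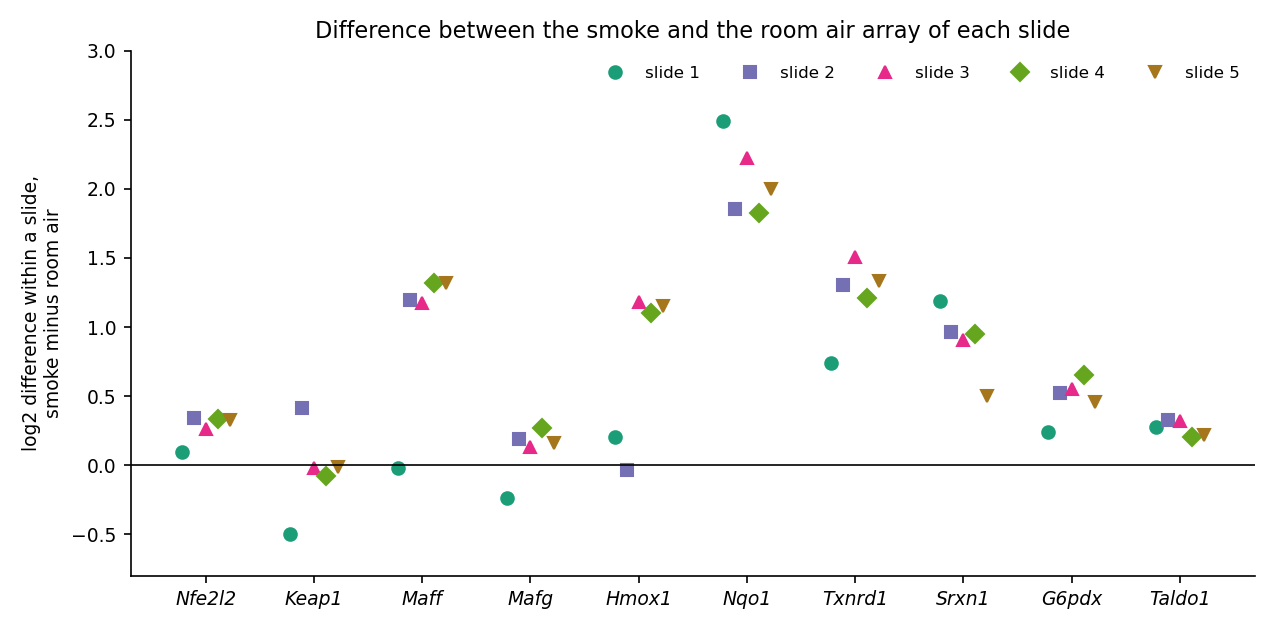
Log2 ratio of the smoke array minus that of the room air array on the same slide (vertical axis) for each of the 10 genes, with 1 symbol per slide. Maff lies at -0.02 on slide 1 and at 1.17 to 1.32 on the others, and Hmox1 lies near 0 on slides 1 and 2 and at 1.10 to 1.18 on the other slides.

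The wider pathway was described with 6 lists, written from general knowledge with earlier results of these data known. They hold 92 measured genes besides the 10. Of these, 31 were past the threshold and higher with smoke, 2 were past it and lower, and 59 were not past it, with a median log2 difference of 0.16. The shares over all genes are 4.94% higher and 3.27% lower. The count of 33 in either direction was 26 to 38 when each array was left out in turn. The lower count was 1 without room air replicate 3 or 4 or smoke replicate 2, 3 or 5, 4 without room air replicate 1, 5 with the slide as a block and 0 with offset 0. The lists differed among themselves, and the genes named from each are those with the largest changes among the ones past the threshold. For any gene named outside that rule, it is said that it was chosen after its values were seen. Lack of overlap in a gene named for its large change follows in part from that choice. Over all genes the lowest smoke array exceeded the highest room air array in 4.59%.

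Among 18 other regulators of Nrf2, 1 passed and was higher, 0 were lower, and the median difference was -0.05. The groups did not overlap in that gene, Dpp3, a peptidase that binds Keap1 (0.22, 1.17-fold, adjusted p = 0.0205, and up to 0.0553 without room air replicate 2 or smoke replicate 1), and the call rests on the probe chosen, as the mean of its probes gave 0.09 (adjusted p = 0.375). Chosen after its values were seen, Bach1, a repressor that competes for antioxidant response elements, had a difference of 0.36 and was not past the threshold (adjusted p = 0.109), and the third small Maf gene, Mafk, had -0.23 (adjusted p = 0.269, or 0.0193 with the slide as a block).

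Of 16 genes of thioredoxins, peroxiredoxins and their partners, 2 were higher and 1 lower, with a median of 0.10. Thioredoxin itself, Txn1, rose 1.28-fold (0.35, adjusted p = 0.0248), and the mitochondrial thioredoxin reductase Txnrd2 rose 1.33-fold (0.41, adjusted p = 0.0395). Nucleoredoxin, Nxn, fell by 0.24 on the log2 scale (adjusted p = 0.0244). These 3 calls were weak: without single arrays in turn the adjusted p reached 0.0668 for Txn1 (without room air replicate 2 or smoke replicate 2, 3 or 5), 0.0950 for Txnrd2 (any array but room air replicate 4 and smoke replicate 2) and 0.0673 for Nxn (room air replicate 3 or 4 or smoke replicate 2, 3 or 5). As the mean of all its probes Txnrd2 was 0.17 (adjusted p = 0.140) and Nxn -0.17 (adjusted p = 0.0667). The groups overlapped in Txnrd2 and did not overlap in Txn1 and Nxn. The peroxiredoxins, the family that holds the targets of Srxn1, were looked at after their values were seen: in limma 0 of Prdx1 to Prdx6 passed, while Prdx1, Prdx2, Prdx3, Prdx4 and Prdx5 were higher with unadjusted p of 0.00393, 0.00500, 0.0259, 0.0308 and 0.0105. Prdx1 (0.30, adjusted p = 0.0540) and Prdx2 (0.16, adjusted p = 0.0635) had no overlap of the groups, and with the slide as a block Prdx1 and Prdx5 passed (adjusted p = 0.0158 and 0.0165).

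Of 13 measured genes listed under NADPH supply, 3 were higher and 1 lower, with a median of 0.11. Pgd, the next NADPH-making enzyme of the pentose phosphate pathway after G6pdx, rose 1.59-fold (0.67, adjusted p = 0.000202). Idh1, cytosolic isocitrate dehydrogenase, rose 1.34-fold (0.42, adjusted p = 0.0245, and up to 0.0688 without room air replicate 2 or smoke replicate 1, 3 or 5). The malic enzyme gene Me2, whose enzyme works mainly with NAD rather than NADP, rose 1.32-fold (0.40, adjusted p = 0.00579). Aldh1l1, a folate enzyme that makes NADPH, fell by 0.39 (adjusted p = 0.00812). In these 4 genes, named for the size of their change, the groups did not overlap. The other malic enzyme genes of the list, looked at after their values were seen, did not pass. Me1 had 0.14 (adjusted p = 0.552) and Me3 had -0.26 (adjusted p = 0.131, or 0.0240 with the slide as a block). Of the pentose phosphate genes on this list Pgd alone passed, and Pgls, H6pd, Rpe and the transketolase gene Tkt, looked at after their values were seen, had differences of 0.17, 0.06, 0.08 and 0.11 (adjusted p = 0.276, 0.770, 0.647 and 0.915). Without single arrays in turn Pgls ran from 0.13 to 0.24, H6pd from 0.03 to 0.10 and Rpe from 0.02 to 0.12. Pgls passed without room air replicate 1 (adjusted p = 0.0259). Tkt was lowest on slide 2 in both groups, at -0.91 in room air replicate 2 and -1.47 in smoke replicate 2, the smoke array that stood apart in Hmox1. Without smoke replicate 2 its difference was 0.39 (adjusted p = 0.106), and without room air replicate 2 it was -0.0097.

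Heme and quinone metabolism had 6 of 13 genes higher and 0 lower, with a median of 0.34. The carbonyl reductase Cbr3 rose 2.06-fold (1.04, adjusted p = 2.14e-05), ferrochelatase, Fech, which closes heme synthesis, rose 1.53-fold (0.61, adjusted p = 0.0408), and Alas1, which opens it, rose 1.51-fold (0.59, adjusted p = 0.00126). The groups overlapped only in Fech, which lost its call with the slide as a block (adjusted p = 0.0601), and also without room air replicate 2, 4 or 5 or smoke replicate 1, 2, 4 or 5 (up to 0.105), and as the mean of its probes it was 0.41 (adjusted p = 0.146). The other called genes, chosen after their values were seen, were the constitutive heme oxygenase Hmox2 (1.27-fold, adjusted p = 0.000618) and the biliverdin reductases Blvra (1.45-fold, adjusted p = 0.00111) and Blvrb (1.48-fold, adjusted p = 2.91e-05), which act on the product of heme oxygenase. In these 3 genes the groups did not overlap, with smoke higher, whereas Hmox1, the inducible enzyme of that step, was split within both groups.

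The genes of glutathione synthesis, conjugation and transport had 9 of 16 higher and 0 lower, with a median of 0.50. Slc7a11, the cystine carrier that feeds glutathione synthesis, rose (2.02 on the log2 scale, adjusted p = 6.51e-05), but by how much is uncertain, since its signal cleared the background in 5 of 5 lungs after smoke and in only 2 of 5 after room air. Its difference was 0.75 as the mean of its probes and 5.36 with the scanner's own ratio, and it passed in 22 of 23 alternatives. Gclc, the catalytic subunit of the rate-limiting enzyme of glutathione synthesis, rose 2.09-fold (1.06, adjusted p = 0.00798), and the glutathione transferase Gsta1 rose 1.97-fold (0.98, adjusted p = 0.000287). The last list holds other genes taken as Nrf2 targets, chosen with earlier results of these data known and not tested for control by Nrf2. It had 10 of 16 higher and 0 lower, with a median of 0.62. Its largest rises were those of the aldo-keto reductase Akr1b8 (3.71-fold, adjusted p = 0.000156), the aldehyde dehydrogenase Aldh3a1 (2.45-fold, adjusted p = 0.000378) and Gdf15, a stress-induced secreted factor (2.12-fold, adjusted p = 6.22e-06). In all 6 of these genes, named for the size of their rise, the groups did not overlap. Gsta1 and Akr1b8 belong to families of closely related genes, and cross-binding was not tested. Ferritin, which stores the iron that heme oxygenase releases, was also among the called genes: its subunits Fth1 and Ftl1, chosen after their values were seen, rose 1.48-fold (adjusted p = 0.00228) and 1.61-fold (adjusted p = 0.000694).

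**Figure D4:**
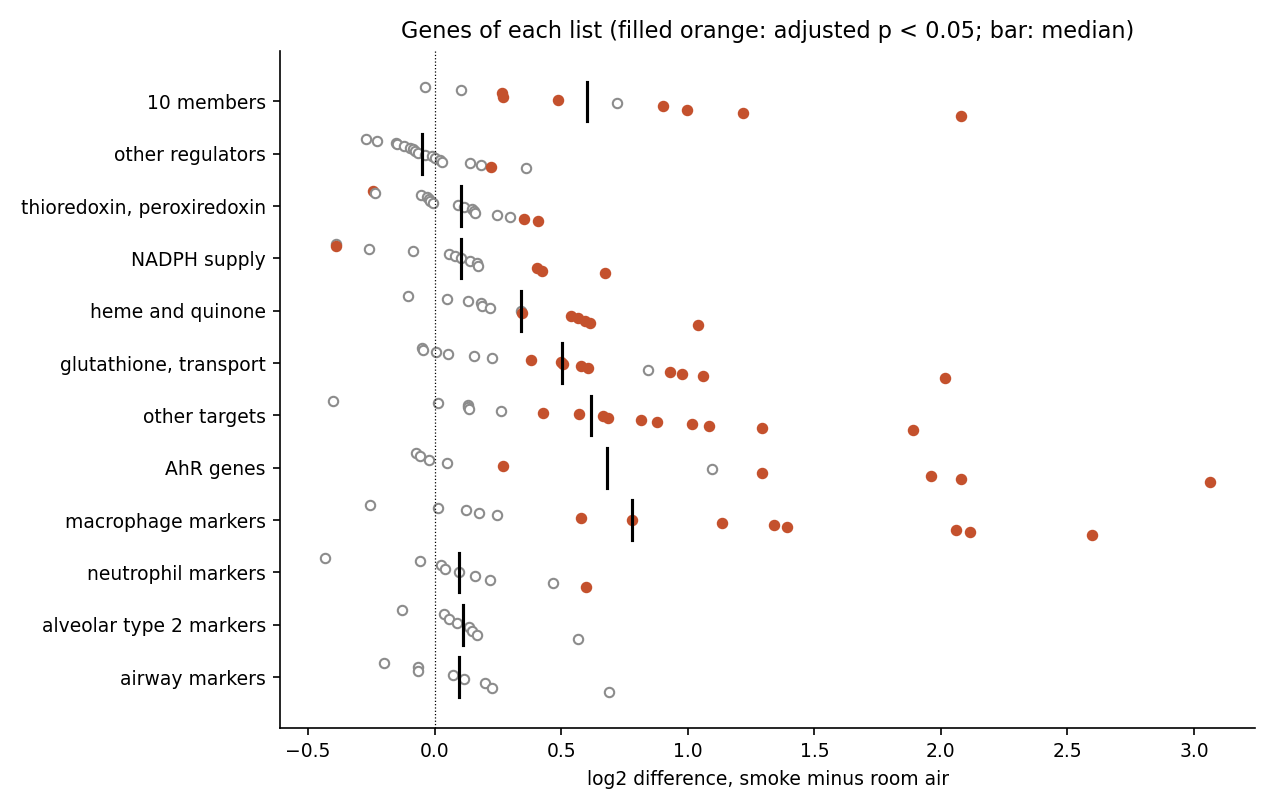
Log2 difference between smoke and room air (horizontal axis) for each measured gene of the 10 described here, of the 6 pathway lists, of the AhR list and of 4 cell type lists, with filled orange points for an adjusted p under 0.05 and a bar at the median of each list. The medians of the pathway lists run from -0.05 for the other regulators to 0.62 for the other targets, and the macrophage list has a median of 0.78.

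Nqo1 also answers to the aryl hydrocarbon receptor, AhR, which senses polycyclic hydrocarbons such as those in smoke. Of 10 genes known as part of that response, 5 were higher and 0 lower, with a median of 0.68, and these were Cyp1b1 (8.37-fold, adjusted p = 1.08e-07), Nqo1, Ahrr (3.89-fold, adjusted p = 1.76e-06), Aldh3a1 and Nfe2l2, all with no overlap of the groups. This list shares Nqo1 and Nfe2l2 with the 10 genes and Aldh3a1 with the other targets, so these counts are not independent. The size of these rises depended on the processing: Cyp1b1, at 3.06 on the log2 scale as reported, was 1.79 as the mean of its probes and 3.62 in the red channel alone at the 75th percentile, where Ahrr, at 1.96 as reported, was 3.32 and Aldh3a1, at 1.29 as reported, was 2.99. Each of these 3 genes passed in 22 of 23 alternatives. Cyp1a1, chosen after its values were seen, had a difference of 1.09 and was not past the threshold (adjusted p = 0.254), and without room air replicate 1, at 3.42 against 5.01 to 6.38 in the other room air arrays, the difference was 0.62.

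By profile over the 10 arrays, the genes nearest to Nqo1 among the 17126 well above background in red on all arrays were Ahrr, Cd68, Lgals3, Kcnj10 and Ms4a7. Their root mean square differences from Nqo1, after each gene's room air mean was subtracted, were 0.149, 0.172, 0.200, 0.210 and 0.222 on the log2 scale. Ahrr is the repressor of AhR, and Cd68, Lgals3 and Ms4a7 are known as genes of macrophages. These genes were picked for their likeness to Nqo1, so their differences between the groups follow from the choice and are given as a description: 4.00-fold for Lgals3 and Kcnj10 and 5.04-fold for Ms4a7. Kcnj10, at 2.00 on the log2 scale, was 0.98 with the scanner's ratio and 2.97 in the red channel alone at the 75th percentile.

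The lungs also differed in markers of cell types, and in whole lung fewer cells of a type and less RNA per cell cannot be told apart. Of 13 measured macrophage markers, 8 were higher and 0 lower, with a median of 0.78: Marco rose 6.05-fold, Chil3 4.33-fold, Cd68 4.16-fold, Adgre1 2.62-fold, Itgax 2.53-fold and Mrc1 2.20-fold, besides Pparg and Csf1r, which were named after their values were seen. For Mrc1 the ratio rests on a weak denominator, since its green signal was well above background on 2 of 10 arrays. In the red channel alone at the 75th percentile Mrc1 was 1.33 on the log2 scale, against 1.14 as reported, and with the scanner's ratio its adjusted p was 0.121. Marco, at 2.60 as reported, was 2.16 with the scanner's ratio and 3.68 in the red channel alone, Itgax, at 1.34, was 0.91 as the mean of its probes and 2.13 in red alone, and Adgre1, at 1.39, was 0.84 as the mean of its probes. The brightest of them, Lyz2, had a difference of 0.18 and was not past the threshold (adjusted p = 0.705), with values from 0.08 without smoke replicate 2 to 0.31 without smoke replicate 3, and 0.46 with ratios scaled between arrays. The remaining markers, named after their values were seen, were not past it either. Siglecf had 0.25 (adjusted p = 0.312), Fabp5 0.13 (0.195), Ear1 0.01 (0.984) and Fabp4 -0.25 (0.780). Summed over the list, in multiples of the 75th percentile of the array's red signal, the macrophage markers had 724, 902, 680, 728 and 924 in room air replicates 1 to 5 and 979, 1389, 1052, 760 and 1405 in the smoke replicates. All 10 genes are expressed by many cell types, and the part of the macrophage markers in their differences was not tested.

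Of 9 measured neutrophil markers, 1 was higher, Camp, named after its values were seen (0.60, adjusted p = 0.00881), whose green signal was well above background on 0 of 10 arrays, so that the size of its rise is uncertain, and 0 were lower, with a median of 0.09, and S100a9, the brightest, had a difference of 0.16. This count depends on room air replicate 1: without it S100a8, looked at after its values were seen, went from 0.47 (adjusted p = 0.718) to 0.97 and passed (adjusted p = 0.00458), with that array at 4.39 and the nearest room air array at 2.09. Their summed signal was 199.98 in room air replicate 1, the array that stood apart in Maff, Hmox1 and Txnrd1, against 40.16, 30.01, 34.89 and 50.05 in the other room air arrays and 94.19, 70.06, 50.83, 58.80 and 69.15 in smoke replicates 1 to 5. Its part in those values was not tested. Among 5 red cell markers (median 0.20, with 1 higher and 0 lower), Slc4a1 rose 2.44-fold with overlapping groups (1.29, adjusted p = 0.0144), but it was 0.84 and not past the threshold with the scanner's ratio (adjusted p = 0.325) and 1.89 in the red channel alone at the 75th percentile, passing in 19 of 23 alternatives. Hbb-bt, the brightest, had 0.31 (adjusted p = 0.699), from 0.12 without room air replicate 4 to 0.49 without smoke replicate 4. Over the 23 alternatives it reached 0.71 and passed in 0. The summed signal of the red cell markers was 1460, 1442, 1714, 1679 and 2158 with room air and 2410, 2904, 1911, 1888 and 2757 with smoke. Red cell markers stand beside the heme genes in this, and their part was not tested.

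Markers of other cell types follow. Of 8 alveolar type 2, 8 airway and 8 T and B cell markers 0 were past the threshold in limma in either direction and 0 had an unadjusted p under 0.05. The list medians were 0.11, 0.09 and 0.06, and the brightest, Sftpc, Scgb1a1 and Cd3d, had differences of -0.13, -0.20 and 0.35, where Sftpc and Scgb1a1 turned to 0.15 and 0.13 with ratios scaled between arrays and the Sftpc probe was saturated on 1 array. Scgb1a1 was -0.34 without smoke replicate 2 and -0.02 without smoke replicate 3. With the slide as a block Cd3d passed (adjusted p = 0.0327), and so did Sftpd, Napsa and Muc5b, named after their values were seen (0.57, 0.17 and 0.69, adjusted p = 0.0441, 0.0494 and 0.0474). Without room air replicate 1 Muc5b was 1.00 and passed in limma (adjusted p = 0.00758). In the lists that follow the block added only lower calls, also named after their values were seen: Aqp5 of the alveolar type 1 markers (-0.23, adjusted p = 0.0266), Tek of the endothelium (-0.24, adjusted p = 0.0159) and Actc1 and Myl4 of heart muscle (-0.46 for each, adjusted p = 0.00329 and 0.0302). Pecam1 and Tnnt2 were named after their values were seen. Of 6 alveolar type 1 markers (median -0.11) 1 was lower, Cav1, which fell by 0.64 (adjusted p = 0.00110), and of 7 endothelial markers (median -0.12) 1 was lower, Pecam1, which fell by 0.41 (adjusted p = 0.0488, and up to 0.119 without any single array but room air replicate 1 or 4 or smoke replicate 3), while the brightest, Cldn5, had -0.12. Without single arrays in turn Cldn5 ran from -0.18 to -0.03. In the red channel alone Cldn5 was -0.74 at the 75th percentile and -0.82 with quantile normalization, past the threshold in both (adjusted p = 0.0125 and 0.00101). Heart muscle, which could be carried along with lung, had 1 of 6 markers lower (median -0.40), Tnnt2, which fell by 0.41 (adjusted p = 0.0493, and 0.0592 to 0.119 without any single array but room air replicate 5), and its brightest marker Myl7 had -0.07, or -0.71 in red with quantile normalization (adjusted p = 0.0166). Of 5 liver markers (median -0.42) 0 passed, 0 at an unadjusted p either, and the brightest, Alb, whose green signal was well above background on 2 of 10 arrays, had -0.80, from -0.37 without room air replicate 5 to -1.06 without room air replicate 1. In the red channel alone at the 75th percentile Alb was -1.88 (adjusted p = 0.569).

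The summed red signals of these lists, in multiples of the 75th percentile of the array, were lower with smoke in alveolar type 1 and endothelial markers. Alveolar type 1 markers summed to 353, 382, 380, 400 and 432 in room air replicates 1 to 5 and 291, 266, 275, 295 and 328 in the smoke replicates. Endothelial markers summed to 207, 223, 244, 228 and 256 with room air and 165, 163, 168, 153 and 176 with smoke. In both lists every smoke sum was below all room air sums. Such a sum is weighted toward the brightest genes, here Cav1 and Cldn5, and does not show a fall across a list. Cav1 was the only alveolar type 1 marker past the threshold. Cldn5 was -0.74 in red alone at the 75th percentile and -0.12 as a ratio. The other sums overlapped: alveolar type 2 markers gave 1851 to 3050 with room air and 2481 to 4060 with smoke, airway markers 1073 to 1466 and 1057 to 1800, T and B cell markers 4.36 to 8.10 and 4.91 to 6.19, heart muscle markers 87.5 to 134 and 60.1 to 89.4, and liver markers 0.0393 to 2.80 and 0.0458 to 0.131. The part of any of these in the values of the 10 genes was not tested.

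Promoter windows from RefSeq (build GRCm38.p6), from 250 bases before to 50 bases after a start, were found for 9 of the 10 genes, 13 windows in all. The set of windows used here held none for Hmox1. The core of the antioxidant response element was searched as TGACNNNGC on both strands, and 6 genes held it: Nfe2l2, Srxn1, Txnrd1, Maff, Mafg and G6pdx, in 6 of the 13 windows, where 12.4% of all 32851 windows hold it. TGACTCAGC, a form of the site bound by Nrf2 with a small Maf protein, was in 0 of the 13 windows and in 0.454% of all. The form TGAGTCAGC was not searched. The Srxn1 window holds it, starting 45 bases before the start, where an AP-1 match also lies. The AP-1 motif TGACTCA, which lies within TGACTCAGC, was found in Srxn1 only, at 2 places, and in 5.2% of all windows. The AhR core GCGTG was found in 7 genes and 9 of the 13 windows and in 32.4% of all. Nqo1 held none of these motifs in this window. A match is a description of letters, not of binding, and known elements may lie outside these windows.

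The upstream bases of 4 of these genes, chosen since their transcripts rose by the largest factors among the 10, are shown 5′ to 3′ on the strand of the gene, with matches to TGACNNNGC or TGACTCA on either strand in capitals. They are Srxn1 at chr2:152105274-152105523 (plus strand), with matches to TGACTCA that begin 102 and 45 bases before the start, Txnrd1 at chr10:82858956-82859205 (plus strand, the second of its 3 windows), with a match to TGACNNNGC that begins 92 bases before it, Maff at chr15:79346371-79346620 (plus strand, the first of its 3 windows), with such a match 112 bases before it, and Nqo1 at chr8:107403206-107403455 (minus strand), with none.
Srxn1: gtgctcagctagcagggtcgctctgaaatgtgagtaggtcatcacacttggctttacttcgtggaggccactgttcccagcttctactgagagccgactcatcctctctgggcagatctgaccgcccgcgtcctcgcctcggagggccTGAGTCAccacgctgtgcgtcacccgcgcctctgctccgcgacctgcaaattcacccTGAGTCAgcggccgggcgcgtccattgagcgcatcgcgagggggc
Txnrd1: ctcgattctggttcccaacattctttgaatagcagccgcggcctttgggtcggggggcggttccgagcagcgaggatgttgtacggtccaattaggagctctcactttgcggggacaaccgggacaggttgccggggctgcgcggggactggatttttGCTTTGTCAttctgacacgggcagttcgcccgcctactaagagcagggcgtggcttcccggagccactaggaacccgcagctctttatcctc
Maff: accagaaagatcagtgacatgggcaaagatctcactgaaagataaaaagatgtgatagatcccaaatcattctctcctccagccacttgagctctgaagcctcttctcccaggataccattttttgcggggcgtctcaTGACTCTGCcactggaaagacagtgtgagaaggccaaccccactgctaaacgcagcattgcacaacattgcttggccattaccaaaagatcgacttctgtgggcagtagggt
Nqo1: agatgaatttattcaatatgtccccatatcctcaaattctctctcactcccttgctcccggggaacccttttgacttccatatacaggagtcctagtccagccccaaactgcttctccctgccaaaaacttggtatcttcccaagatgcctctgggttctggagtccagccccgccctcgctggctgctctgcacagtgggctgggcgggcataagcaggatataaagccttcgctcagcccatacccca

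**Figure D5:**
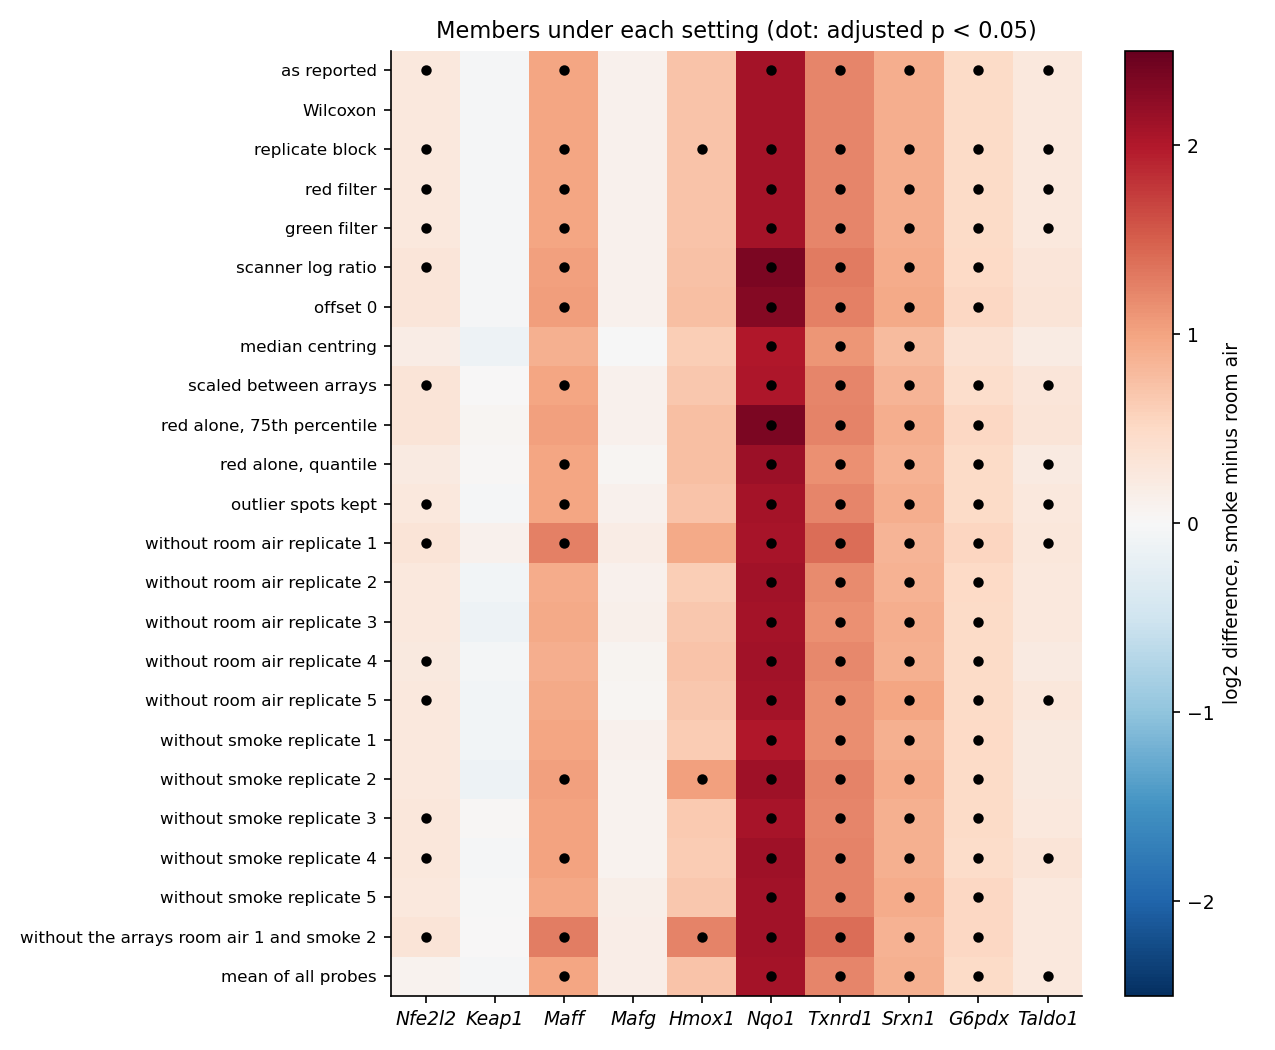
Log2 difference between smoke and room air (color) for each of the 10 genes under each setting of the processing, with a dot where the adjusted p was under 0.05. Nqo1, Txnrd1 and Srxn1 carry a dot under every setting but the Wilcoxon test, while Nfe2l2, Taldo1 and Maff lose it when several single arrays are left out and Hmox1 gains it without smoke replicate 2.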

How the data were processed

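Lung RNA of 10 mice was hybridized to Agilent arrays of the mouse genome. The authors deposited scanner files in which Agilent Feature Extraction 9.5.3.1, per the file headers, holds for each spot an intensity in red and in green, a background, flags, and a log10 ratio of red over green. The labels name a single dye and version 9.1, while the files hold 2 channels. The deposited table of log2 values was used only to check the files against each other: all 286449 values equal, within 1e-04, those of the array of the same number in the other group.

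Mean spot intensities were corrected with normexp (offset 50) in limma 3.58.1 under R 4.3.3, without the control spots. Loess was fitted to the ratios of an array, the scanner's outliers were dropped, and a probe's remaining spots were averaged. The groups were compared two-sided with lmFit and eBayes, and p-values were adjusted by Benjamini and Hochberg's method across the probes of the array. The steps were tested on simulated data. Arrays of the same replicate number share a slide, and their deviations from the group means correlated across probes by 0.157, 0.461, 0.460, 0.550 and 0.415, while arrays of unlike number had a median of -0.123 and a highest value of 0.205, above the first pair. The numbers also stand for slides, so samples are paired by slide, which was a block in an alternative. Of 23 alternatives 1 was chosen after seeing the data.

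The members, the 6 pathway lists, the AhR list and the 10 marker lists were chosen with earlier results of these data known. Named were all 10 members, the 3 largest rises and falls past the threshold in each pathway list and the AhR list, the brightest member and those past the threshold by more than 2-fold in each marker list, and the 5 genes nearest to Nqo1 in profile. Rpia, Ugt1a6a, Ear2, Ly6g, Ahsp and Serpina1c had no probe under these names.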

Additional observations from a re-analysis of the deposited data

Results flagged for a closer look

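A value is given here where the gap from the highest or lowest of a group's 5 arrays to its nearest neighbour was over 0.71 of the group's range. For the 16 probes of the 10 genes, 32 combinations of probe and group were looked at and 5 met this, and for the other genes named by the rule 78 were looked at and 4 met it, where chance gives about 1 in 20.

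Room air replicate 1 accounts for 3 of the 5. Its log2 ratio of lung over reference was 0.93 in Nfe2l2, with the nearest room air array at 0.69, -0.044 in Txnrd1, with the nearest at -0.79, and 0.0080 in Maff, with the nearest at -1.23. In each of these it lay on the side of the smoke arrays. The same array was at 1.87 in Gclc, with the nearest at 0.94. Its summed neutrophil marker signal was 199.98, against 30.01 to 50.05 in the other room air arrays, and the part of this in the 4 values was not tested.

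In Hmox1, smoke replicate 2 was at -2.02, with the nearest smoke array at -0.59, and it lay below every room air array. In Taldo1, smoke replicate 4 was at 0.66, with the nearest smoke array at 0.87. Gdf15 in room air replicate 4 was at -1.43, with the nearest at -1.62. Marco in smoke replicate 4 was at 4.97, with the nearest at 5.92, and Mrc1 in smoke replicate 3 was at 5.15, with the nearest at 4.43. Genes named outside the rule are not in these counts. Of them, S100a8 met the same limit in room air replicate 1 (4.39, nearest 2.09). Tkt met it in room air replicate 2 (-0.91, nearest -0.37) and smoke replicate 2 (-1.47, nearest -0.16), Cyp1a1 in smoke replicate 3 (7.05, nearest 6.37) and Prdx3 in smoke replicate 4 (-0.98, nearest -0.86). No cause was tested for any of these.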

How the results depend on the processing

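Signal over background limits dim probes: the median red signal was 1.68 to 2.82 times its background, while all 16 probes of the 10 genes were well above it on every array. Over 23 alternatives, Nqo1, Txnrd1 and Srxn1 stayed past the threshold in 22, G6pdx in 21, Maff in 13, Nfe2l2 in 12 and Taldo1 in 10, and Hmox1 passed in 3. The cause was not tested where none is named.

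The exact Wilcoxon test, whose smallest p with 5 arrays against 5 is 0.00794, called 0 probes after adjustment (5446 at an unadjusted p under 0.05, against 2906 adjusted calls by limma), 0 of the 10 genes and 0 pathway list genes. With the replicate block, 5019 probes and 8 of the 10 genes passed; among the genes of all lists 16 calls were gained, with Hmox1, Mafk, Prdx1, Prdx5 and Cd3d among them, and 1 was lost, Fech. An offset of 0 gave 1660 probes, median centring 1434 and the red channel alone at the 75th percentile 1754. The number of the 10 genes higher with smoke, 7 as reported, was 3 with median centring (Nqo1, Txnrd1 and Srxn1), 4 with the red channel alone at the 75th percentile, 4 to 7 without each array in turn (4 without room air replicate 2 or 3 or smoke replicate 1 or 5) and 7 without both room air replicate 1 and smoke replicate 2, chosen after seeing the data, where Hmox1 was in and Taldo1 out. The number lower was 0 in every alternative. Of the pathway list genes, 33 passed as reported and 19 with median centring.

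Of the called genes 60.1% were higher with smoke (1366 higher and 905 lower), 48.5% with median centring (555 and 590) and 72.4% with offset 0 (936 and 356).

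Among the genes named by the rule, signs changed in some that were not past the threshold. Keap1 was 0.014 scaled between arrays, 0.051 in red at the 75th percentile, 0.026 in red with quantile normalization, 0.012 without both arrays and -0.13 to 0.10 without each array in turn. Mafg was -0.0051 with median centring, and Lyz2 was -0.044 in red with quantile normalization. Scaled between arrays, Sftpc was 0.15, Scgb1a1 0.13, Cldn5 0.17 and Myl7 0.21. Sftpc was 0.18 in red at the 75th percentile, and Myl7 was 0.011 with the scanner's ratio and 0.0050 with offset 0. Without each array in turn S100a9 ran from -0.017 to 0.33, Sftpc from -0.26 to 0.020 and Myl7 from -0.18 to 0.069.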
